A study of Mus musculus with 18 samples.

Results

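A20 and its partners and the SOCS proteins are the brakes that macrophages switch on when their receptors are engaged. 10 genes were followed here, 6 that edit or read ubiquitin chains in the NF-κB pathway (Tnfaip3, Tnip1, Tnip3, Tax1bp1, Cyld and Otulin) and 4 of the SOCS family (Socs1, Socs2, Socs3 and Cish). They were chosen by name, and all 10 were found among the 21734 protein-coding genes of the count table. Of the 21734 genes 11357 had enough reads to be tested, and 8 of the 10 members were among them. Socs2 and Cish were not.

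Expression was measured by RNA sequencing of bone marrow-derived macrophages (BMDMs), which are marrow cells grown into macrophages in the growth factor M-CSF. The mice were wild-type (WT), knock-out for miR-146a (KO), or carried the non-seed swap allele 3′F, whose miR-146a keeps the seed while part of its 3′ region is exchanged. All were of a 129/B6 mix and 6 to 7 months old, 3 of each genotype, and their BMDMs were cultured for 8 to 9 days with 10 ng/ml M-CSF. A last medium change, with 1 ng/ml LPS or without it, came 16 h before harvest. LPS is the bacterial cell wall component that Toll-like receptor 4 detects. This gave 6 groups of 3 libraries, resting and LPS for each genotype. The KO and 3′F changes are in the germline, so every cell of the animal carries them. All groups have the same label of mixed background. The authors state that the KO and 3′F lines were backcrossed and bred separately, so effects of genotype and of line cannot be told apart. The labels do not say which resting and LPS cultures came from the same mouse, so the p values given here measure the spread between cultures.

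MicroRNA-146a is induced by NF-κB and lowers the output of the pathway that induced it, with the adaptors Irak1 and Traf6 as its classical targets. Tnfaip3 encodes A20, which removes or alters the ubiquitin chains that carry the signal from these adaptors to the IKK complex. Tnip1, Tnip3 (A20-binding ubiquitin readers, also called ABIN proteins) and Tax1bp1 (an adaptor for A20) work with it, while Cyld and Otulin are separate deubiquitinases that cleave Lys63-linked and linear chains. SOCS proteins act on another pathway: they are induced by STAT factors and bind cytokine receptors or JAK kinases to stop signalling, Socs1 mainly after interferons, Socs3 after the IL-6 family, and Cish and Socs2 after STAT5-activating cytokines and growth hormone.

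The 2 forms of miR-146a differ outside the seed only, which is why both are shown, with miR-146b as the related microRNA of another chromosome. The seed, bases 2 to 8, is in capitals. The mature strands come from RefSeq on build GRCm38.p6, miR-146a at chr11:43374435-43374456 (minus strand) and miR-146b at chr19:46342790-46342811 (plus strand), and the 3′F strand is the one designed by the study, without its added overhang.
mmu-miR-146a-5p: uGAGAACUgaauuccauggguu
mmu-miR-146b-5p: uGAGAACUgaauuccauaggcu
designed 3′F strand: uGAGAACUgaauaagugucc
Over the 20 bases that could be compared, miR-146a and the 3′F strand shared bases 1 to 12 and differed at all 8 positions from 13 to 20.

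A match to this seed was present in the longest annotated 3′ UTR of 5 of the 10 members. Socs2 held an 8mer (a match to bases 2 to 8 followed by an A), Tax1bp1 and Cyld held a 7mer-A1 (bases 2 to 7 and the A), and Tnip3 and Socs1 held 6mers only (bases 2 to 7), 1 and 2 of them. Of 20803 genes with a 3′ UTR, 31.4% held a match of 6 or more bases, against these 5 of 10 members. A 7mer or 8mer was held by 19.3% of the genes, against 3 of 10 members. These shares take no account of length, and a longer 3′ UTR has more places for a match. The UTRs with a match had 4932 (Cyld), 3638 (Socs2), 2932 (Tnip3), 1993 (Socs1) and 706 bases (Tax1bp1). The median over all genes was 1088 bases. No match of 6 or more bases was found in the 3′ UTRs of Tnfaip3, Tnip1, Otulin, Socs3 or Cish. The 3 strongest matches are shown with 1 of the 2 8mers of Irak1 for comparison, and capitals mark the matched bases and the A. Their positions, on build GRCm38, are chr10:95387577-95387600 (minus strand) for Socs2, chr6:52766755-52766778 (plus) for Tax1bp1, chr8:88751391-88751414 (plus) for Cyld and chrX:74015390-74015413 (minus) for Irak1.
Socs2: ttatatgcttgaaAGTTCTCAaat
Tax1bp1: tcaaggcattatctGTTCTCAtta
Cyld: ttcagcatattttgGTTCTCAttc
Irak1: actcagaggtcaaAGTTCTCAtgc
These are matches of letters only, and whether any of them was bound was not measured here.

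Promoters were searched for 2 motifs, the κB consensus that NF-κB binds and TTCNNNGAA, the core of the STAT site, on both strands from 250 bases before to 50 bases after each start in RefSeq. A κB consensus was found at Tnfaip3, Tnip1, Tnip3, Tax1bp1 and Cyld, and in 5.8% of all 32851 promoters. That share counts promoters and not genes. Tnfaip3 and Tax1bp1 had 2 promoters each, of which 1 held the motif, and the other members searched had 1 each. TTCNNNGAA was found at Tnip1, Socs3 and Cish, the last with 2 matches, and in 8.3% of all promoters. Tnip1 alone among the members held both. Its 2 matches and that of Socs3 are shown with the motif in capitals, a choice made after the levels of these genes were seen. On build GRCm38.p6 they lie on the minus strand at chr11:54962978-54963007 and chr11:54963121-54963149 for Tnip1 and at chr11:117969502-117969530 for Socs3.
Tnip1, κB consensus: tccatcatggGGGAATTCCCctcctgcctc
Tnip1, TTCNNNGAA: ccccctccccTTCCTGGAAtctaccacaa
Socs3, TTCNNNGAA: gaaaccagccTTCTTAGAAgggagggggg
Neither motif was found in the promoter windows of Otulin or Socs1, although Socs1 had the largest response to LPS of the members in WT. Whether the motifs had a part in any level was not tested. Socs2 was not in the promoter table.

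Total counts per library ran from 4071084 to 19818043. All 10 macrophage markers checked passed the filter, Adgre1, Csf1r and Lyz2 among them, and their summed level was 32793 to 88791 CPM (counts per 1000000 of library size, scaled for composition by TMM). Lyz2 made up most of that sum, at 26461 to 75160 CPM. Markers of T and NK, B, dendritic, mast, erythroid and stromal cells were low, at most 11.5 CPM summed over any 1 list. Neutrophil markers summed to 10.5 to 54.4 CPM. S100a8 alone stood at 6.70 to 48.3 CPM, and the next highest gene of that list reached at most 6.15 CPM. The neutrophil sums were higher in all 3 LPS libraries than in the resting libraries in WT, and in resting KO replicate 3 (50.9 CPM) and resting 3′F replicate 3 (49.9 CPM) than in the other resting libraries, which reached 20.9 CPM. Resting KO replicate 3 also stood apart in interferon-response genes, as given below with Socs1. Replicates of every group differed by more than sampling noise. In bulk cultures, fewer cells expressing a gene and less RNA per cell cannot be told apart.

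**Figure D1:**
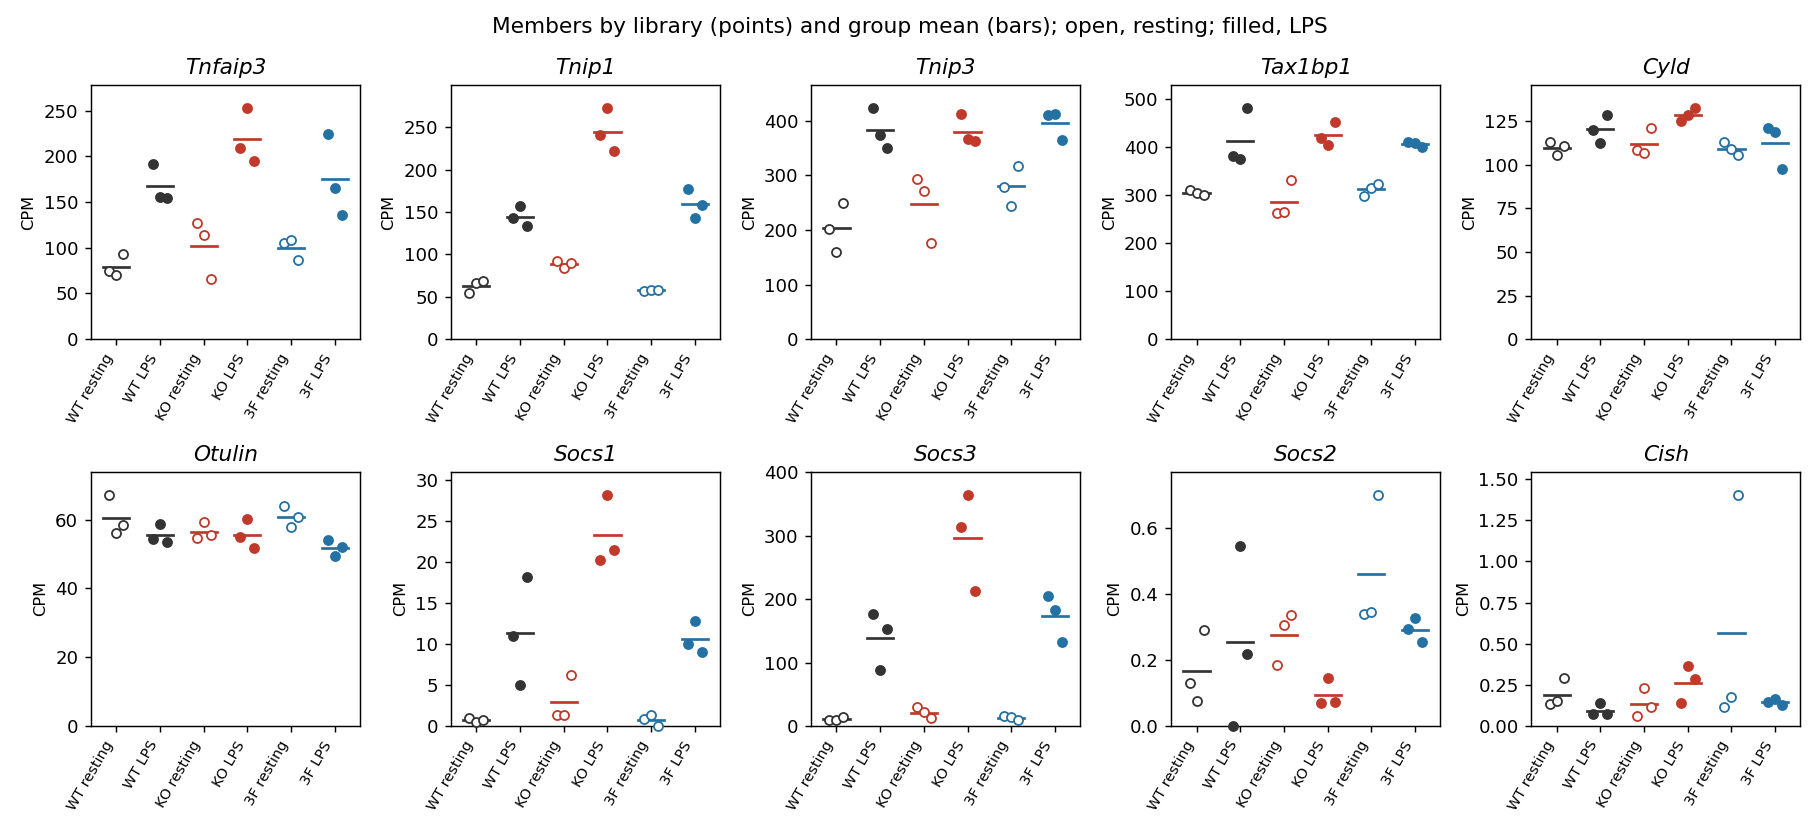
CPM of the 10 members in every library (points) with the group mean (horizontal bars), each panel on its own linear axis from 0, open points for resting and filled points for LPS. Socs3 and Socs1 rose most with LPS, Tnip1 was higher in KO than in the other genotypes in both states, Cyld and Otulin lay within narrow ranges, and Socs2 and Cish stayed at or under 1.40 CPM.

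LPS raised 6 of the 8 members tested in every genotype, Tnip3 in 3′F only just. These were Socs1, Socs3, Tnip1, Tnfaip3, Tnip3 and Tax1bp1, and in each genotype all 3 LPS libraries of each of the 6 lay above all 3 resting ones. How many of all genes tested separated in this way was not counted. Socs1 and Socs3 rose 8.54-fold to 15.6-fold and the ubiquitin editors 1.30-fold to 2.77-fold. Cyld and Otulin were not called in any genotype. Calls were made below an adjusted p of 0.05, taken over all 11357 genes, and by that rule 28.5% of genes were called in WT, 26.9% in KO and 31.2% in 3′F, and 16.3%, 14.3% and 17.2% were called as higher. The median log2 LPS response of the 8 members was 0.99 in WT, 0.86 in KO and 0.66 in 3′F, beside medians of 0.02, 0.02 and −0.01 over all genes tested.

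Socs3, the feedback inhibitor of gp130 receptors, held rank 7 in level per kb of exon among the members at rest in each genotype, and with LPS rank 1 in KO and rank 3 in WT and 3′F. In resting WT BMDMs it stood at 9.33, 9.79 and 13.8 CPM in replicates 1 to 3, and with LPS at 176, 88.0 and 153 CPM. In KO the resting values were 29.2, 21.4 and 12.0 CPM and those with LPS 313, 364 and 213 CPM. In 3′F they were 16.2, 13.7 and 9.13 CPM and then 204, 184 and 132 CPM. The highest resting library, at 29.2 CPM, was below the lowest library with LPS, at 88.0 CPM. The log2 response was 3.67 ± 0.35 (SE) in WT (adjusted p = 1.55e-06), 3.82 ± 0.34 in KO (adjusted p = 7.66e-07) and 3.69 ± 0.35 in 3′F (adjusted p = 1.39e-06).

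Socs1, the inhibitor of interferon receptor signalling, rose by a like factor from a far lower level. Resting WT libraries held 0.920, 0.452 and 0.774 CPM, which is 6 to 14 reads per library, and WT libraries with LPS 11.0, 4.98 and 18.2 CPM. KO went from 1.30, 1.38 and 6.18 CPM to 20.2, 28.2 and 21.4 CPM. Resting 3′F libraries held 0.903 and 1.27 CPM in replicates 1 and 2 and no read in replicate 3, the shallowest library, where a count of 0 allows up to 0.699 CPM (3 reads, counting error only), and 3′F libraries with LPS held 10.0, 12.8 and 8.98 CPM. The groups did not overlap in any genotype, yet resting KO replicate 3 was higher than WT replicate 2 with LPS. The log2 response was 3.96 ± 0.63 in WT (adjusted p = 0.000236), 3.09 ± 0.53 in KO (adjusted p = 0.000425) and 3.51 ± 0.62 in 3′F (adjusted p = 0.00053). Without resting KO replicate 3 the response in KO was 4.11.

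Tnip1, the ABIN-1 gene, rose in a narrow band. In WT it went from 54.7, 65.8 and 68.4 CPM to 143, 156 and 133 CPM. In KO it went from 92.2, 83.7 and 89.4 CPM to 240.2, 272 and 221 CPM, and in 3′F from 57.1, 58.1 and 58.1 CPM to 177, 143 and 158 CPM. Every library with LPS was above every resting library, whatever the genotype. The log2 response was 1.20 ± 0.11 in WT (adjusted p = 1.56e-06), 1.47 ± 0.11 in KO (adjusted p = 1.6e-07) and 1.47 ± 0.11 in 3′F (adjusted p = 1.99e-07).

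Tnfaip3, the gene of A20 itself, about doubled. Resting WT libraries held 74.6, 70.3 and 93.4 CPM and WT libraries with LPS 191, 156 and 154 CPM. The KO values were 127, 114 and 65.6 CPM at rest and 209, 253 and 194.5 CPM with LPS, and the 3′F values 105, 108 and 86.6 CPM and then 224, 166 and 136 CPM. The lowest resting KO value was that of replicate 3. The log2 response was 1.07 ± 0.22 in WT (adjusted p = 0.00183), 1.10 ± 0.22 in KO (adjusted p = 0.00149) and 0.81 ± 0.22 in 3′F (adjusted p = 0.0108). In 3′F the call was lost without LPS replicate 1 (0.60, adjusted p = 0.0691) or without resting replicate 3 (0.68, adjusted p = 0.057).

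Tnip3, which encodes ABIN-3, was already high at rest and stood between 349.7 and 423 CPM in all 9 libraries with LPS. WT went from 201, 159 and 249 CPM to 423, 374 and 349.7 CPM, KO from 292, 272 and 176 CPM to 412, 366 and 362 CPM, and 3′F from 278, 243 and 317 CPM to 411, 412 and 364 CPM. The resting libraries were the more spread, and KO replicate 3 was the second lowest of them. The log2 response was 0.91 ± 0.18 in WT (adjusted p = 0.00144), 0.62 ± 0.18 in KO (adjusted p = 0.0169) and 0.50 ± 0.18 in 3′F (adjusted p = 0.0441). The 3′F call stood at the threshold: it was lost in 4 of 7 other ways of fitting (adjusted p up to 0.0626) and when any 1 of its 6 libraries was left out (adjusted p from 0.0546 to 0.136), and the KO call with the compared groups alone (adjusted p = 0.0894) and without LPS replicate 1 or without LPS replicate 2 (adjusted p = 0.065 in each case).

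Tax1bp1, the A20 adaptor, changed least among the members that were called. WT libraries lay between 301 and 311 CPM at rest and between 376 and 481 CPM with LPS, KO libraries between 264 and 331 CPM and then 405 and 451 CPM, and 3′F libraries between 298 and 323 CPM and then 399 and 411 CPM. The log2 response was 0.43 ± 0.11 in WT (adjusted p = 0.00866), 0.57 ± 0.11 in KO (adjusted p = 0.00129) and 0.38 ± 0.11 in 3′F (adjusted p = 0.0177). The WT call was lost without LPS replicate 3, the 481 CPM library, and the 3′F call without resting replicate 1 or with no filter on low counts (adjusted p = 0.0514 and 0.0513).

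The 2 free-standing deubiquitinases had the smallest responses of the 8 members tested in each genotype, and neither was called. Cyld lay between 97.2 and 132 CPM over all 18 libraries, and Otulin, the linear-chain deubiquitinase, between 49.4 and 67.2 CPM. For Cyld the log2 response was 0.13 ± 0.10 in WT (adjusted p = 0.334) and 0.20 ± 0.10 in KO (adjusted p = 0.14). For Otulin it was −0.13 ± 0.09 in WT (adjusted p = 0.343) and −0.23 ± 0.09 in 3′F (adjusted p = 0.07), where all 3 LPS libraries (54.1, 49.4 and 52.1 CPM) were below the resting ones (64.1, 57.9 and 60.6 CPM). The 95% intervals of their 6 responses ran from −0.43 to 0.40, so a doubling or halving lay outside all of them. Some alternatives made a call here: Otulin in 3′F was lower in 3 of 7 other ways of fitting (lowest adjusted p = 0.0214) and without resting 3′F replicate 3 (adjusted p = 0.0461), and Cyld in KO, where all 3 LPS libraries lay above the resting ones, was higher by limma-voom with quality weights (adjusted p = 0.00853).

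**Figure D2:**
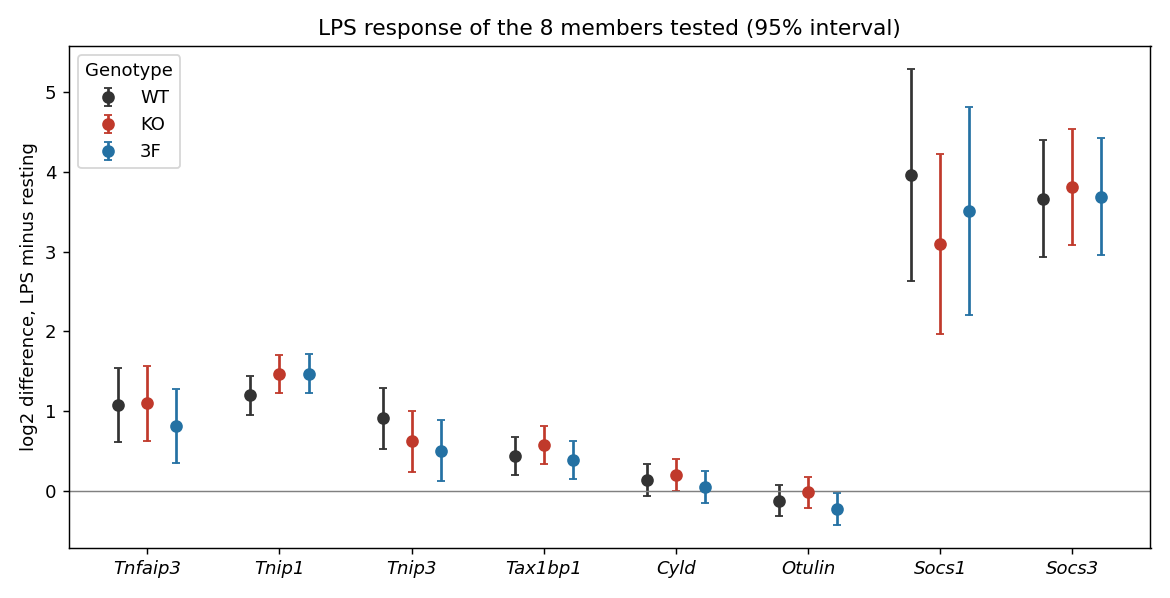
Log2 difference between LPS and resting libraries with its 95% interval for the 8 members tested, in WT, KO and 3′F. The intervals of Socs1 and Socs3 lie between 1.96 and 5.30, those of Tnip1 between 0.96 and 1.71, and those of Cyld and Otulin between −0.43 and 0.40.

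Socs2 and Cish, the SOCS genes best known from STAT5 signalling, were hardly read at all. Socs2 had 0 to 8 reads per library and Cish 1 to 6, at most 0.702 and 1.40 CPM, and both maxima came from resting 3′F replicate 3, the shallowest library, where they were 3 and 6 reads. In WT with LPS, Socs2 had 0, 8 and 3 reads, and the count of 0 allows up to 0.209 CPM. When no filter on low counts was applied, neither gene was called in any comparison, and no difference between groups was detectable at this depth.

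The response to LPS was not called as different between genotypes for any member. The log2 difference between the KO and WT responses ran from −0.87 to 0.27 over the 8 members and that between the 3′F and WT responses from −0.45 to 0.27. Over all genes tested, 0.00881% and 0% were called, so these comparisons made almost no calls of any gene. The widest interval was that of Socs1 in 3′F, from −2.43 to 1.53. For Socs1 in KO the difference of −0.87 ± 0.85 became 0.15 without resting KO replicate 3. For Tnip1 in KO it was 0.27 ± 0.16 (95% interval −0.06 to 0.61).

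Per kb of exon, the members spanned 3 orders of magnitude. In resting WT BMDMs Tax1bp1 was highest, at 81.9 ± 1.36 CPM per kb (SD, n = 3), followed by Tnip3 at 50.4 ± 11.2 and Otulin at 40.6 ± 3.94, which overlapped each other. Tnip1 at 19.7 ± 2.28 and Tnfaip3 at 16.3 ± 2.52 overlapped as well, and Cyld at 13.4 ± 0.49 was below both. Socs3 stood at 4.30 ± 0.97 CPM per kb and Socs1 at 0.586 ± 0.20, each clear of its neighbours, while Socs2 and Cish at 0.061 and 0.052 could not be separated.

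With LPS this order changed mainly through Socs3. In WT, Tax1bp1 (111 ± 16.0 CPM per kb) and Tnip3 (94.7 ± 9.23) still led, overlapping, and Socs3 (54.4 ± 17.9) came next, overlapping Tnip1 (45.0 ± 3.70). In KO with LPS, Socs3 (116 ± 30.2) and Tax1bp1 (114 ± 6.39) shared the top. In 3′F with LPS the order was Tax1bp1, Tnip3 and Socs3 (67.9 ± 14.7), as in WT, and Tnip1 and Tnfaip3 overlapped. Socs1 with LPS stood at 9.32 ± 5.42 in WT, 19.1 ± 3.53 in KO and 8.68 ± 1.60 in 3′F.

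**Figure D3:**
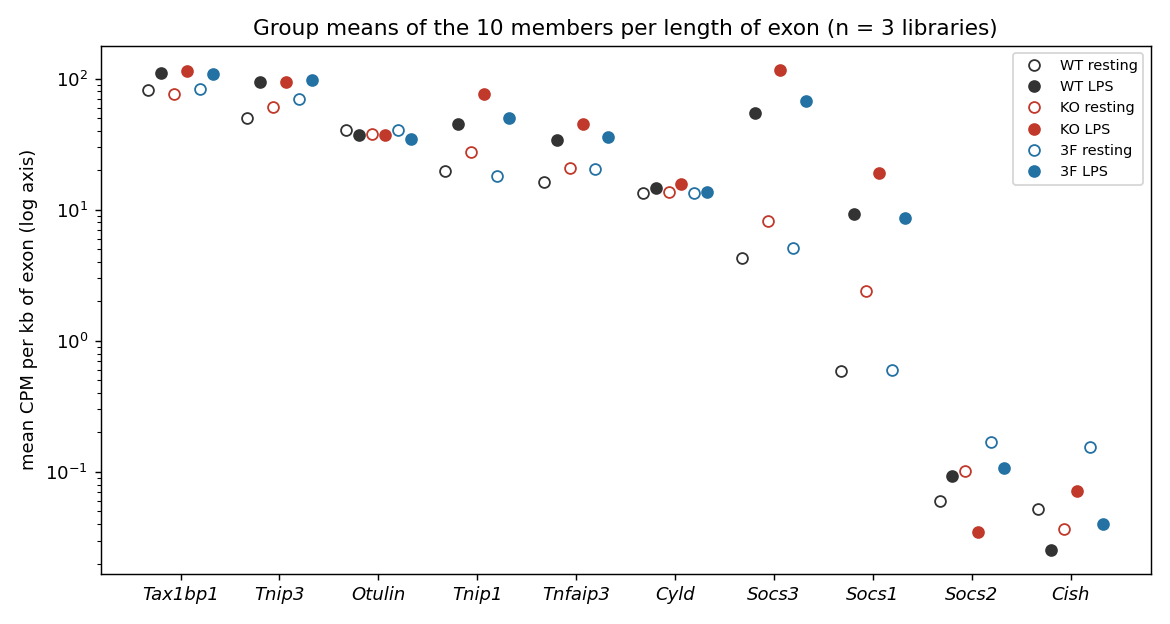
Mean CPM per kb of exon of the 10 members in the 6 groups, on a log axis, ordered by their level in resting WT. Socs3 moved from 4.30 at rest to 54.4 with LPS in WT and to 116 in KO with LPS, while Otulin stayed between 34.8 and 40.8 in all 6 groups.

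Of the members tested, Tnip1 was the only one called between genotypes, and it was higher in KO in all 4 comparisons. At rest its level in KO was 1.41-fold that in WT (log2 0.49 ± 0.11, adjusted p = 0.0126) and 1.53-fold that in 3′F (0.61 ± 0.11, adjusted p = 0.00555). With LPS it was 1.70-fold that in WT (0.76 ± 0.11, adjusted p = 0.00105) and 1.53-fold that in 3′F (0.62 ± 0.11, adjusted p = 0.00615). As the values above show, the lowest KO library was above the highest WT and 3′F library in each state, 83.7 against 68.4 CPM at rest and 221 against 177 CPM with LPS. The comparisons with WT and with 3′F share the KO libraries and are not independent of each other. Marker sums moved with genotype as well. The macrophage sum was 61565 to 62813 CPM in resting KO against 32793 to 49151 CPM in resting WT, and 72189 to 88791 CPM in KO with LPS against 46407 to 61033 CPM in WT and 51282 to 61234 CPM in 3′F with LPS. Resting 3′F, at 43540 to 63600 CPM, overlapped KO. Neutrophil markers summed to 35.9 to 54.4 CPM in KO with LPS, above the 26.5 to 32.9 CPM of WT and the 23.8 to 28.8 CPM of 3′F. As Lyz2 made up most of the macrophage sum and S100a8 was the highest neutrophil marker, a sum can move through 1 gene. The part of the marker sums in the KO differences of Tnip1, Socs1 and Socs3 was not tested.

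1 of 8 members called is to be read against the share of all genes called. That share was 9.4% for KO against WT at rest (5.12% higher), 4.79% with LPS (1.89% higher), 12.9% for KO against 3′F at rest (6.79% higher) and 3.88% with LPS (1.51% higher). Without resting WT replicate 1, the lowest Tnip1 library, the difference from WT at rest was 0.40 and its call was lost (adjusted p = 0.0619). Fitted on the 2 compared groups alone, both resting calls were lost (adjusted p = 0.0964 against WT and 0.105 against 3′F) with differences of 0.47 and 0.61.

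Tnip1 lies at chr11:54910785-54962917 on the minus strand, 11.6 Mb from miR-146a, and Socs3 lies on the same chromosome at 74.6 Mb. Among the 219 genes tested within 20 Mb of miR-146a, 10% were called in KO against WT at rest and 6.85% with LPS, beside 9.44% and 4.85% on other chromosomes. Against 3′F the shares within 20 Mb were 11.9% and 5.48%, beside 13% and 3.93%. Among the 20 genes tested within 5 Mb the shares were higher, 15% and 20% against WT and 20% and 25% against 3′F, which is 3 to 5 genes. Anxa6, a gene near Tnip1 at 11.6 Mb that was picked after its values were seen, was also higher in KO in all 4 comparisons, by 0.82 and 1.27 than in WT at rest and with LPS and by 0.91 and 1.35 than in 3′F. The genes tested on either side of this pair, Gpx3 at 11.5 Mb and Ccdc69 at 11.7 Mb, were not called in any of the 4. Whether the strain of origin of this stretch differed between the genotypes was not tested.

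Socs3 and Socs1 had the largest differences between KO and WT without being called. For Socs3 the log2 difference was 0.95 ± 0.33 at rest (adjusted p = 0.0853) and 1.10 ± 0.31 with LPS (adjusted p = 0.0516), and all 3 KO libraries with LPS (213 to 364 CPM) were above all WT libraries with LPS (88.0 to 176 CPM). At rest KO replicate 3, at 12.0 CPM, fell within the WT range, and without it the difference was 1.22 (adjusted p = 0.0283). Against 3′F the Socs3 difference was 0.65 ± 0.33 at rest (adjusted p = 0.186) and 0.78 ± 0.31 with LPS (adjusted p = 0.188). The Socs3 difference from WT with LPS stood next to the threshold and passed it in 5 of 6 other ways of fitting the data, with adjusted p from 0.00822 to 0.0573. With 1 library left out the adjusted p ran from 0.0463 to 0.252, the latter without WT replicate 2, the lowest library, where the difference was 0.85.

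For Socs1 the difference between KO and WT was 1.90 ± 0.70 at rest (adjusted p = 0.105) and 1.03 ± 0.46 with LPS (adjusted p = 0.247). Against 3′F it was 1.54 ± 0.68 (adjusted p = 0.135) and 1.12 ± 0.47 (adjusted p = 0.217). In CPM, all 3 KO libraries were above all WT and all 3′F libraries in both states. At rest the margin over 3′F was slight, 1.30 CPM (21 reads) in KO replicate 1 against 1.27 CPM (22 reads) in 3′F replicate 2. The highest resting WT library held 14 reads. How many of all genes tested separated between genotypes in this way was not counted. The resting differences leaned on KO replicate 3, whose 6.18 CPM compares with 1.30 and 1.38 in the other KO libraries. Without it they were 0.88 against WT (adjusted p = 0.497) and 0.51 against 3′F (adjusted p = 0.619).

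The same library was high in interferon-response genes. The 14 genes of that list (Ifit1, Mx1, Irf7 and the like, which interferons induce) summed to 12004 CPM in resting KO replicate 3, against 615 and 458 CPM in replicates 1 and 2 and 99.4 to 239 CPM in resting WT. With LPS the sums were 6874, 2870 and 16649 CPM in WT, 10588, 14644 and 11509 CPM in KO and 7537, 7978 and 5189 CPM in 3′F. Within each of the 3 LPS groups the replicates stood in the same order for Socs1 as for this sum, and within none of the 3 resting groups did all of them. How many of all genes tested matched the sum in this way was not counted. Between groups the order did not hold throughout. WT replicate 3 with LPS had the highest sum but less Socs1 (18.2 CPM) than the KO libraries with LPS (20.2 to 28.2 CPM). The part of the interferon genes in the Socs1 values was not tested.

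**Figure D4:**
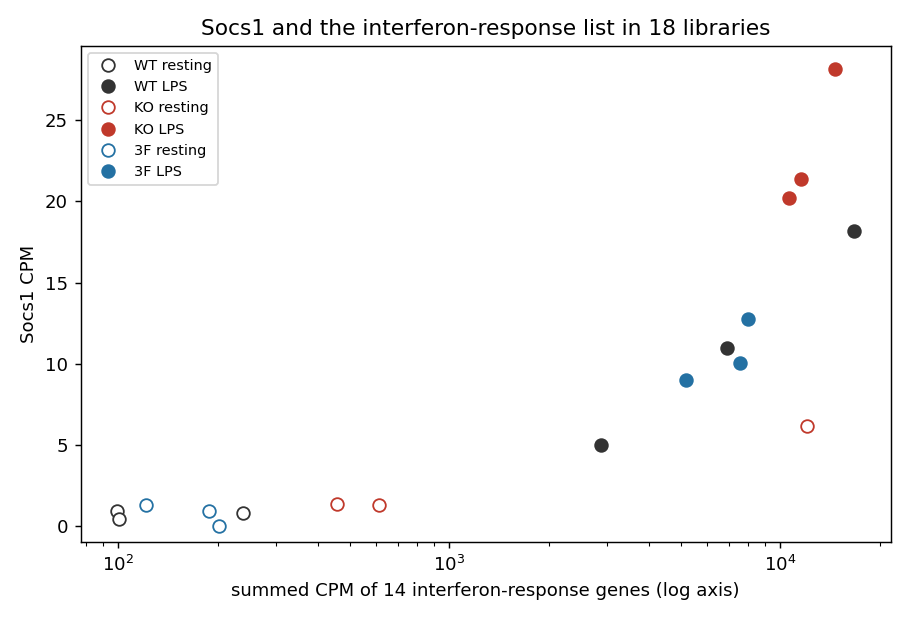
Socs1 CPM (linear axis) against the summed CPM of 14 interferon-response genes (log axis) in the 18 libraries, coloured by genotype, open for resting and filled for LPS. The resting KO library at 6.18 CPM of Socs1 lies at 12004 CPM of interferon genes, among the LPS libraries and apart from the other resting libraries.

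The remaining editors gave no call between genotypes. Tnfaip3 in KO was at a log2 difference of 0.37 ± 0.22 from WT at rest (adjusted p = 0.345) and of 0.39 ± 0.22 with LPS (adjusted p = 0.388). In the latter all 3 KO libraries lay above all WT libraries (194.5 to 253 against 154 to 191 CPM). Tnip3, Tax1bp1, Cyld and Otulin differed between KO and the other genotypes by −0.18 to 0.28 in the 4 comparisons. For Tax1bp1, Cyld and Otulin the 95% intervals of these differences stayed between −0.36 and 0.39. Those 3 genes include both members tested that carry a 7mer match to the seed, Tax1bp1 and Cyld. Whether miR-146a targets either gene was not tested, as only RNA levels were measured.

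Between 3′F and WT no member was called in either state, where 0% of all genes tested were called at rest and 0.00881% with LPS. At an unadjusted p under 0.05 there was 1 member at rest, Tnip3, and none with LPS, beside 557 and 106 of the 11357 genes tested. So 1 member of 8 at this level is not read as a difference. Tnip3 was higher in 3′F by 0.46 ± 0.18 at rest (unadjusted p = 0.0219, adjusted p = 0.843), with 2 of the 3 3′F libraries above all WT ones. DESeq2, the other count model run, also called no member. For Tnip1, the member that differed in KO, 3′F was at −0.12 ± 0.11 from WT at rest (95% interval −0.36 to 0.12) and at 0.15 ± 0.11 with LPS (−0.09 to 0.38). Intervals for the 6 editors in 3′F reached from −0.39 to 0.84 over both states, and for Socs1 at rest from −1.35 to 2.08, so a large change of Socs1 in either direction was not detectable at this depth.

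**Figure D5:**
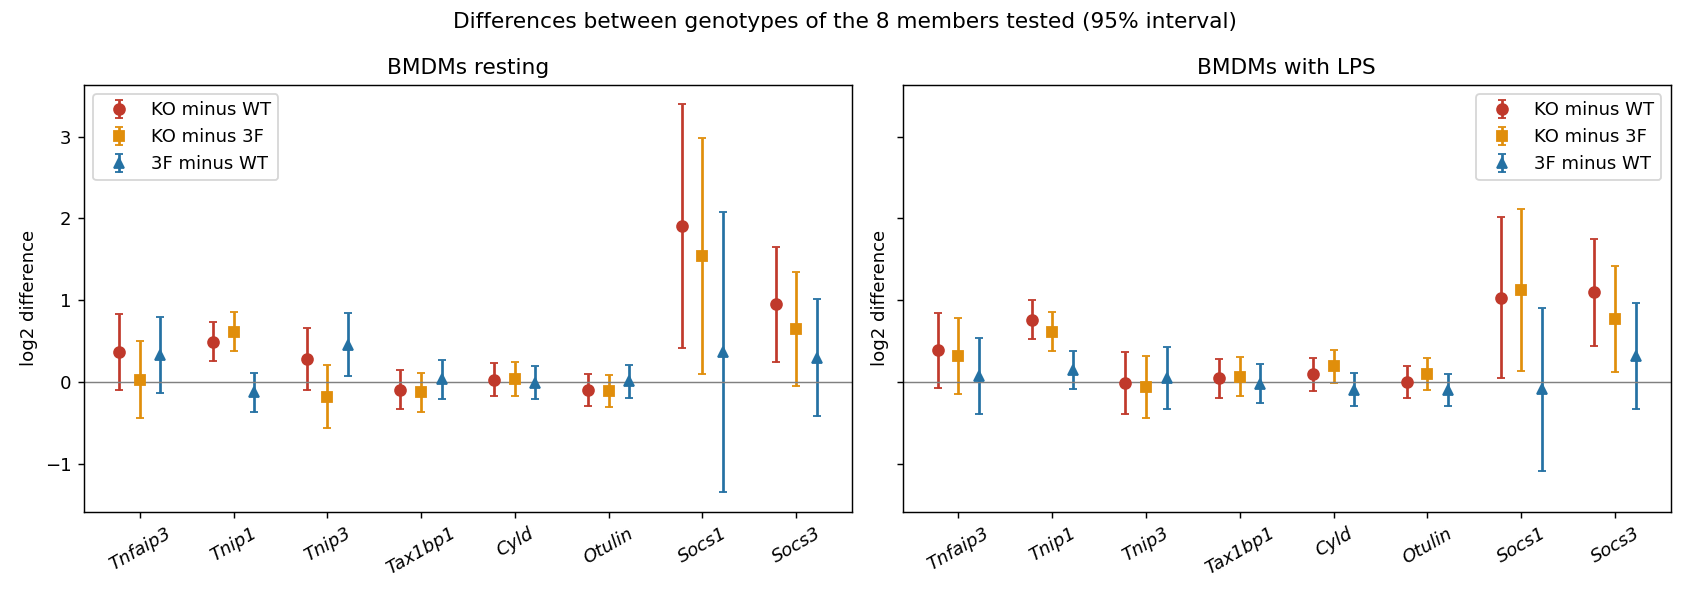
Log2 differences between genotypes with 95% intervals for the 8 members tested, at rest (left) and with LPS (right). Tnip1 in KO lies at 0.49 to 0.76 against both other genotypes while its 3′F to WT difference lies at −0.12 and 0.15, and Socs1 has the widest intervals.

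The other genes of these pathways give the setting for the members. Of 26 tested genes that make, read or hold ubiquitin chains around the IKK complex, 8 rose and 1 fell with LPS in WT, 7 and 1 in KO and 9 and 0 in 3′F, with median log2 responses of 0.23, 0.14 and 0.30. Traf1, a signalling adaptor induced by NF-κB, rose by 2.97 in WT, 1.98 in KO and 2.99 in 3′F. Birc3, the ubiquitin ligase cIAP2, rose by 1.46 in WT, 1.21 in KO and 1.58 in 3′F, and Otud7b, a deubiquitinase, fell by 0.32 in WT and fell by 0.42 in KO.

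Birc3 was, like Tnip1, called in all 4 comparisons of KO. It was higher in KO by 0.90 and 0.65 than in WT at rest and with LPS, and by 0.90 and 0.52 than in 3′F. Against WT 3 genes of the list were called at rest and 1 with LPS, and against 3′F 5 and 1, all higher in KO. Without resting KO replicate 3 the 5 became 2, and without resting 3′F replicate 3 they became 3. None was called between 3′F and WT.

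NF-κB subunits and IκB proteins formed the next list. Of 11 tested, 8 rose with LPS in WT, 5 rose and 1 fell in KO and 8 rose in 3′F. Nfkbie, the inhibitor IκBε, rose by 1.79, 1.20 and 1.61, and Nfkb2 by 1.39, 1.09 and 1.63. At rest 6 were higher in KO than in WT and 5 higher than in 3′F, Nfkbie by 1.19 and 0.79, and the 5 became 3 without resting 3′F replicate 3. Without resting KO replicate 3 the 6 became 8 and the 5 became 7. With LPS only Nfkb1 was called among the 11, higher in KO by 0.59 than in WT and by 0.57 than in 3′F.

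On the cytokine side, 6 of 8 tested ligands rose and 1 fell with LPS in WT and in KO, and 4 rose and 1 fell in 3′F. Il1b rose by 4.33, 5.22 and 3.60, while Osm, a ligand of the IL-6 family, fell, with log2 responses of −1.40, −1.59 and −1.55. Of 16 tested receptors of the JAK-STAT pathway, 10, 9 and 11 rose, Csf2rb, the shared receptor chain for GM-CSF and IL-3, by 1.75, 1.28 and 2.25. Il6st, the gp130 chain that Socs3 targets, had log2 responses of −0.44, −0.51 and −0.44 and was called in KO (adjusted p = 0.0266) but not in WT (0.0524) or 3′F (0.0512), which does not show that the genotypes differed.

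Among 11 JAKs and STATs, 7 rose in WT, 4 rose and 1 fell in KO, and 7 rose in 3′F. Jak2, a kinase bound to cytokine receptors, rose by 1.60, 1.45 and 1.86. Without resting KO replicate 3, 7 rose in KO and none fell. In KO against WT at rest 2 of the 11 were called, both higher, and none without that replicate. Against 3′F at rest 5 were higher in KO, and 2 without that replicate or without resting 3′F replicate 3. Of the 16 receptors, 4 were higher in KO than in WT at rest and 6 higher than in 3′F. Without resting KO replicate 3 these became 2 and 6, and without resting 3′F replicate 3 the 6 became 3.

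The other brakes of JAK-STAT signalling resembled Socs1 and Socs3 little. Of 17 tested, 4 rose and 2 fell with LPS in WT, 6 and 2 in KO and 3 and 2 in 3′F, with medians of 0.12, 0.12 and 0.10. Socs6 fell, with log2 responses of −0.97, −0.82 and −0.94. The phosphatases Ptpn1 and Ptpn6 rose, by 0.93, 1.30 and 0.97 and by 1.08, 1.14 and 0.98. Ptpn1 was also the 1 gene of the list called between genotypes with LPS, higher in KO by 0.53 than in WT and by 0.51 than in 3′F.

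All 14 interferon-response genes rose in WT, with a median of 5.67, 13 rose in 3′F and 2 in KO. Without resting KO replicate 3, 13 rose in KO. At rest 13 of the 14 were higher in KO than in WT, and without that replicate 10 of 14, with the median falling from 4.76 to 2.06.

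Over the 18 libraries, the genes whose log2 CPM followed each member most closely are given as a description, since the libraries split into resting and LPS and any gene that responds to LPS will follow another. For Socs3 they were Fcgr2b and Igsf6 (Pearson r = 0.987 for both), for Socs1 Pik3cd and Tmcc3 (0.987 and 0.986), and for Tnip1 Spata13 and Ehd1 (0.989 and 0.983). Tnfaip3 was followed by Rab20 and Zc3h12c (0.964 each), Tax1bp1 by Tmco3 and Gpat4 (0.957 and 0.955) and Tnip3 by Zfp263 and Prokr1 (0.920 each). Cyld and Otulin had lower values, Cyld with 8030462N17Rik and Vps54 (0.881 and 0.861) and Otulin with Ddx27 and Inafm1 (0.823 and 0.791). Among the members themselves, Tnip1 and Socs3 were closest (0.956), followed by Tnfaip3 and Socs3 (0.946), and Otulin was negative with all the other 7.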

How the data were processed

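Strand-specific libraries were made from rRNA-depleted RNA of BMDM cultures, 3 in each of 6 groups. The authors deposited raw read counts per protein-coding gene: adapters were cut with cutadapt 1.8.3, reads of ribosomal DNA were removed, the rest were aligned to mm10 with HISAT2 2.1.0 and counted by strand with featureCounts 1.5.3, and replicates were not pooled. The deposited exon lengths were used for CPM per kb. The table lists no microRNA.

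Counts were analysed in R 4.3.3 with edgeR 4.0.16. Genes kept by filterByExpr entered 1 quasi-likelihood fit of all 18 libraries with a coefficient per group, after TMM scaling (factors 0.812 to 1.15). Tests were two-sided. Benjamini-Hochberg adjustment ran over every gene in the fit, with calls under 0.05. SE is the log2 difference divided by the square root of F. With 3 against 3 libraries an exact permutation test cannot go below 0.1. The members and gene lists were chosen with earlier results of these data known. Members were named whatever they showed. From each list up to 3 genes per direction were eligible to be named, those with the largest difference among called genes whose libraries did not overlap between groups and whose average log2 CPM reached 1, as were the 2 genes with the highest r with each member (prior count 2). Irak1, S100a8, Anxa6, Gpx3, Ccdc69 and the macrophage and interferon genes given as examples were named in addition. Not every gene that meets this rule is named here.

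Positions and 3′ UTRs came from Gencode's annotation of GRCm38, which is mm10, and microRNAs and promoters from RefSeq. The procedure was tested on simulated data. DESeq2 1.42.0, limma-voom (limma 3.58.1), other scaling, no filter, the compared groups alone, replicate blocks and single libraries left out were tried as alternatives. Replicate pairs were checked for duplicates by chi-square. Counting limits for 0 reads hold for counting error alone, because the reads carry no molecular identifiers.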

Additional observations from a re-analysis of the deposited data

How the results depend on the processing

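The counts of members called with LPS stayed within 1.5 times those reported under every alternative, between 4 and 7 of 8, and 5 to 6 in WT, 5 to 6 in KO and 4 to 5 in 3′F with 1 library left out. Between 3′F and WT, and for the differences between responses, 0 members were called under every alternative. For KO the counts of 1 moved. DESeq2 called 3 members against WT at rest, 2 with LPS and 2 against 3′F at rest. Limma-voom with quality weights called 4, 3, 3 and 3 in the 4 comparisons. With the compared groups alone 0 were called in both resting comparisons, 2 against WT with LPS and 3 against 3′F with LPS. No filter on low counts and the replicate block each called 2 against WT with LPS. The added members were Socs1, Socs3, Tnfaip3, Tnip3 and Tax1bp1, and the cause was not tested. With 1 library left out, KO against WT gave 0 to 2 at rest and 1 to 2 with LPS, and KO against 3′F gave 1 in both states. Over all 88 differences of the members, 65 of 1192 values under an alternative changed sign, 0 of them for a difference that was called as reported and 0 called under the alternative. Among those printed singly, the Socs1 difference between KO and WT responses reversed, to 0.15 without resting KO replicate 3 (range −1.27 to 0.15 with 1 library left out). Counts over all genes also moved, from 1067 to 396 (compared groups alone) or 2259 (limma-voom) for KO against WT at rest, from 544 to 1777 (limma-voom) with LPS, from 1464 to 16 and 2916 for KO against 3′F at rest, and from 441 to 1842 with LPS.

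Whether replicate numbers mark shared animals could not be settled. Deviations of resting and LPS libraries of 1 genotype and number correlated at 0.028 to 0.318, over 0.1 in 5 of 9 pairs. Between libraries of the same state and number in different genotypes they correlated at −0.287 to 0.214, over 0.1 in 4 of 18 pairs. With the replicate block, Socs3 in KO against WT with LPS was at 1.08 (adjusted p = 0.0421), and Tnip3 in 3′F lost its call at 0.50 (adjusted p = 0.0501). Depth limits Socs1 at rest and Socs2 and Cish throughout.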
